A study of Homo sapiens with 6 samples.

Results

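SOCS3, its close relatives SOCS1, SOCS2 and CISH, the transcription factor STAT3, the kinase JAK1, the receptor chains IL6ST, OSMR and IL6R and the STAT target PIM1 form the 10 genes described here, out of 60675 gene identifiers in the count table. They were taken by symbol as the core of the JAK-STAT3 pathway, and each symbol matched 1 identifier in GENCODE 29. The values come from A2058 cells, a line derived from a metastatic melanoma, whose medium holds no vitamin C. In the 3 control wells the cells were left without it. In the 3 other wells they received 0.1 mM vitamin C over 48 h, and the medium was renewed every day before the next dose. A2058 is a single cell line, so the wells are separate cultures and not separate tumors, and p-values here reflect well-to-well spread, which may be technical. The sample labels give the dose as 100 µM in one field and as 50 µM in a protocol field, and the higher value is used here.

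The JAK-STAT3 pathway carries signals of interleukin-6 and its relatives from the cell surface to the nucleus. Most of these ligands join a specific receptor chain to the shared chain gp130, the product of IL6ST. This brings Janus kinases together, and they phosphorylate STAT3, which then enters the nucleus and binds DNA. Among the genes that STAT factors switch on are those of the SOCS family and CISH, whose products block the receptors and kinases and so close a negative feedback loop. In melanoma, activated STAT3 is known for its link to survival, invasion and escape from immune control.

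Sequence from the start regions of the feedback genes is shown because STAT factors bind a short palindrome, TTCNNNGAA, in which N stands for any base. RefSeq windows from 250 bases before to 50 bases after a start site (GRCh38.p14) were found for 9 of the 10 genes, 12 windows in all. SOCS2 had none. Both strands read the same in the fixed letters of the motif. Among all 35116 windows in the table, 7.66% held at least 1 copy and 0.0199% held at least 4. The CISH window held 4 copies, and the windows of the other 8 genes held none. The longer form, with 4 free bases in the middle, was in none of the 12 windows and in 6.44% of all windows. In the 2 stretches below, read 5′ to 3′ on the minus strand, capitals mark the motif. The CISH stretch is chr3:50611832-50612024 and the SOCS3 stretch is chr17:78360926-78361175.

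CISH: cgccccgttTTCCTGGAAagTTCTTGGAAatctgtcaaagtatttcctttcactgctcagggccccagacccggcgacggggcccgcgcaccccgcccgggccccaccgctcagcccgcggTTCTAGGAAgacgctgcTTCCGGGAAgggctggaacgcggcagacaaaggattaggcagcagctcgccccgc
SOCS3: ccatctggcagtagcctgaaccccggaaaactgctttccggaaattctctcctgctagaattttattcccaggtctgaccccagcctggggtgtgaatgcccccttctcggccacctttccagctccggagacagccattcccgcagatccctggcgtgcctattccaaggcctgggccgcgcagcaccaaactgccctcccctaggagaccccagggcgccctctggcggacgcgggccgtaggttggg

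The 4 CISH copies lie in 2 pairs, the first at positions -241 and -230 and the second at positions -129 and -112 from the RefSeq start site. The SOCS3 stretch belongs to a start site that RefSeq places 848 bases upstream of the start of the gene in GENCODE 29. The other SOCS3 window belongs to a RefSeq start site 410 bases inside the gene. The bases just before the GENCODE start were therefore not searched, and nothing follows here for STAT binding at SOCS3.

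The libraries held 16248869 to 41884588 counts. Levels are CPM, counts scaled to a common library total, after TMM scaling, a correction for differences in library makeup. After a filter on low counts, 16353 genes entered the quasi-likelihood test of edgeR, and p-values were adjusted over all of them by the Benjamini-Hochberg method. A gene was called at an adjusted p under 0.05. All 10 melanoma markers on the list were expressed well enough to test, and the melanocyte factors MITF and SOX10 averaged 527 and 102 CPM in control wells and 507 and 103 CPM with vitamin C. Of the 10 markers, 4 were called (40.0%, against 11.2% of all genes). The pigment cell antigen MLANA went from 1.54 to 15.4 CPM on average (log2 fold change 3.38), PMEL and TYR were higher by 0.73 and 0.29 on the log2 scale, and DCT had a log2 fold change of -0.30 (edgeR adjusted p = 9.04e-09, 2.15e-05, 0.00565 and 6.7e-04). The part of these markers in the values below was not tested. Vitamin C replicate 3 stood apart from replicates 1 and 2 of its group, by a chi-square of 10.7 per degree of freedom against either, where other pairs of 1 group gave 2.70 to 6.84. For the 9 genes tested, the log2 fold changes without it stand beside their values.

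Vitamin C treatment raised SOCS3, raised SOCS2 and IL6ST to a smaller extent, and left STAT3 itself at its control level within a narrow interval. Of the 9 genes tested, 3 were higher (33.3%) and none lower, against 11.2% of all genes called in either direction, 6.09% higher and 5.09% lower. The median log2 fold change of the 9 was 0.11, against 0.00 (-0.0037) over all genes tested. One of the 9, OSMR, was lower at an unadjusted p under 0.05, and DESeq2 (10.4% of all genes called), edgeR's exact test and limma-voom likewise called no gene of the 9 lower. SOCS1 had too few counts to test. When control replicate 2, control replicate 3 or vitamin C replicate 2 was left out, SOCS3 was the 1 gene of the 9 still called. Calls over all genes also dropped in these fits, to 977 of 16596, 964 of 16890 and 1136 of 16607, against 1829 of 16353 with all libraries. In RNA from whole wells, more cells that express a gene and more RNA per cell cannot be told apart.

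SOCS3 encodes the feedback inhibitor that binds gp130 and JAKs and is the best known early target of STAT3. Control replicates 1 to 3 held 300, 195 and 116 SOCS3 counts, and vitamin C replicates 1 to 3 held 384, 399 and 392. Its level was 7.20, 7.26 and 7.18 CPM in the control wells and 15.03, 12.1 and 18.7 CPM in the vitamin C wells. Every vitamin C well lay above every control well, with replicate 3 the highest and replicate 2 the lowest of the treated group.

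The SOCS3 mean went from 7.21 ± 0.0421 CPM (SD, n = 3 wells) to 15.3 ± 3.30 CPM (SD, n = 3 wells), a log2 fold change of 1.07 with a standard error of 0.136 (edgeR, adjusted p = 2.16e-04). This is a rise of 2.10-fold, with a 95% confidence interval of 1.71 to 2.57. The log2 fold change was 0.91 without vitamin C replicate 3 (adjusted p = 2.05e-05 from the same test) and 1.22 without vitamin C replicate 2. The study picked SOCS3 from these same libraries, so its call is not independent evidence of a rise. The paper also reports higher SOCS3 by qRT-PCR, which is not part of these counts. The gene lies at 78356778 to 78360077 on the minus strand of chromosome 17 (GRCh38), and no other GENCODE 29 gene shares its exon bases (0%).

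The 3 SOCS3 control values lay closer together than their counts alone would allow on average. Counting error (exact Poisson) put 95% intervals of 6.41 to 8.07, 6.28 to 8.35 and 5.93 to 8.61 CPM around control replicates 1 to 3, so the SD of 0.0421 CPM understates the error of a control level. In the vitamin C wells the intervals were 13.6 to 16.6, 10.97 to 13.4 and 16.9 to 20.7 CPM. Those of replicates 2 and 3 do not touch, so the treated wells differed in SOCS3 by more than counting error. All 3 lay above the highest upper bound in control wells.

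**Figure D1:**
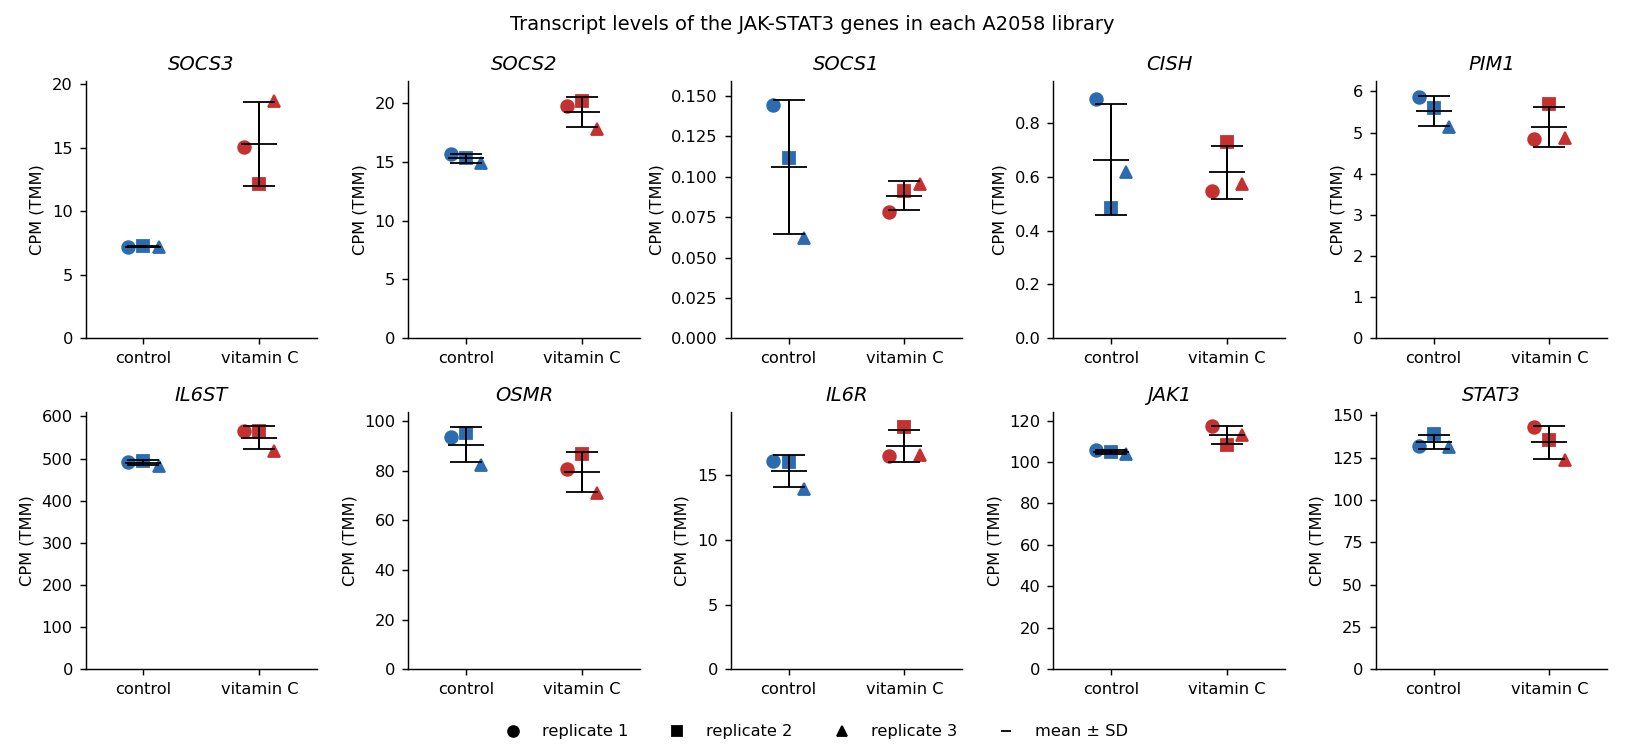
Level of each of the 10 genes (y axis, CPM after TMM scaling, from 0) in the 3 control (blue) and 3 vitamin C libraries (red), with the symbol shape giving the replicate and black bars the mean ± SD of each group. SOCS3 went from 7.18 to 7.26 CPM in control wells to 12.1 to 18.7 CPM in vitamin C wells, and SOCS2, IL6ST, JAK1 and IL6R were also without overlap between groups, by smaller margins.

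SOCS2 is best known as the inhibitor of growth hormone receptor signaling and as a target of STAT5. It was at 15.7, 15.3 and 14.9 CPM in control replicates 1 to 3 and at 19.8, 20.2 and 17.8 CPM in vitamin C replicates 1 to 3. The groups did not overlap, and vitamin C replicate 3 was the lowest treated well, where for SOCS3 it was the highest. The log2 fold change was 0.33 with a standard error of 0.0776 (edgeR, adjusted p = 0.0148), a 1.26-fold rise with a 95% confidence interval of 1.12 to 1.41. Without vitamin C replicate 3 it was 0.39 on the log2 scale (edgeR adjusted p = 0.00293). The call was lost when control replicate 2, control replicate 3 or vitamin C replicate 2 was left out (edgeR adjusted p = 0.058, 0.0618 and 0.0752), at log2 fold changes of 0.33, 0.32 and 0.30. SOCS2 lies at 93569814 to 93583487 on the plus strand of chromosome 12. Its antisense gene SOCS2-AS1 covers 4.1% of its exon bases and went from 2.10 to 2.16 CPM to between 2.58 and 2.64 CPM (log2 fold change 0.29, edgeR adjusted p = 0.32). The sources used here do not say whether counting used the strand, and reads in the overlap cannot be assigned to either gene.

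CISH, the first described member of the SOCS family and a classic target of STAT5, was expressed at a low level. It had 37, 13 and 10 counts in control wells and 14, 24 and 12 in treated wells, or 0.484 to 0.888 and 0.548 to 0.730 CPM. The groups overlapped. Its log2 fold change was -0.14 with a standard error of 0.334 (edgeR, adjusted p = 0.846). The 95% confidence interval of the fold, 0.552 to 1.496, leaves room for changes in both directions. It was 0.21 on the log2 scale without control replicate 1 and -0.09 without vitamin C replicate 3, so not even the sign was settled at this depth.

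SOCS1, the inhibitor best known for blocking interferon signaling at the kinases, had 6, 3 and 1 counts in control wells and 2, 3 and 2 counts in treated wells. A difference between groups was not detectable at this depth, where the 95% Poisson interval of 1 count reached 0.345 CPM.

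SOCS3 was set against its relatives by the log2 ratio of SOCS3 to each of them within a library, which does not depend on scaling. The ratio to SOCS2 was -1.12, -1.08 and -1.05 in control wells and -0.39, -0.73 and 0.08 in treated wells (replicates 1 to 3), a difference of 0.73. SOCS3 therefore had less than the SOCS2 count in every control library and slightly more than it in vitamin C replicate 3. The ratio rose by 1.13 against CISH and by 1.26 against SOCS1, the last resting on 17 SOCS1 counts in all. Without vitamin C replicate 3, these differences were 0.52 against SOCS2, 0.93 against CISH and 1.18 against SOCS1. The groups did not overlap for any of the 3 ratios. SOCS3 was picked from these same libraries, so this is not independent evidence that it moved apart. The exact two-sided permutation test gave p = 0.1 for each (0.1 adjusted over 3 ratios), the smallest value that 3 wells against 3 allow, so none can pass 0.05.

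Among the receptor chains, IL6ST, the shared signal transducer of the family, was the most abundant. It was at 492, 495 and 483 CPM in control replicates 1 to 3 and at 566, 565 and 517 CPM in vitamin C replicates 1 to 3. The groups did not overlap, and vitamin C replicate 3 lay nearest to the controls. The rise was small, a log2 fold change of 0.16 with a standard error of 0.0458 (edgeR, adjusted p = 0.0342), or 1.12-fold with a 95% confidence interval of 1.047 to 1.20. Leaving out any 1 library other than vitamin C replicate 3 took the adjusted p to between 0.0952 and 0.14. Without vitamin C replicate 3 it was 0.00102, at a log2 fold change of 0.21. The gene lies at 55935095 to 55994993 on the minus strand of chromosome 5, and 8.6% of its exon bases overlap AC008914.1 on the other strand, which had 7 to 29 counts per library.

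OSMR, the oncostatin M receptor chain that pairs with gp130, was at 93.7, 95.4 and 82.4 CPM in control and 80.9, 86.8 and 71.1 CPM in vitamin C replicates 1 to 3. Replicate 3 was the lowest well of both groups, and the groups overlapped. The log2 fold change was -0.19 with a standard error of 0.0741 (edgeR, adjusted p = 0.13), and -0.11 without vitamin C replicate 3 (edgeR adjusted p = 0.273). Its ligand oncostatin M (OSM) had 0 counts in all 6 libraries, which allows up to 0.0719 to 0.185 CPM per library at 3 counts. IL6R, the chain that binds interleukin-6, was at 16.1, 16.1 and 13.9 CPM in control and 16.5, 18.7 and 16.6 CPM in vitamin C replicates 1 to 3. Its groups lay narrowly apart, with a log2 fold change of 0.16 that did not pass the test (edgeR adjusted p = 0.264) and was 0.19 without vitamin C replicate 3.

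JAK1, the kinase on which gp130 signaling chiefly depends, was at 106, 105 and 104 CPM in control and 118, 108 and 113 CPM in vitamin C replicates 1 to 3. The groups did not overlap, but the log2 fold change of 0.11 with a standard error of 0.0486 did not pass the test (edgeR, adjusted p = 0.185), and it was 0.11 without vitamin C replicate 3 as well. STAT3 was at 132, 139 and 132 CPM in control and 143, 136 and 124 CPM in vitamin C replicates 1 to 3. Its groups overlapped. The log2 fold change was -0.0006, with a 95% confidence interval of the fold of 0.919 to 1.09, so a change of STAT3 mRNA beyond that range was not seen. Without vitamin C replicate 3 it was 0.0572 (edgeR adjusted p = 0.488). Phosphorylated STAT3, on which its activity rests, is not measured by RNA-seq.

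PIM1, a serine/threonine kinase of survival signaling and a textbook target of STAT3 and STAT5, was at 5.86, 5.59 and 5.14 CPM in control and 4.85, 5.68 and 4.87 CPM in vitamin C replicates 1 to 3. The groups overlapped, with a log2 fold change of -0.11 (edgeR adjusted p = 0.634) and a fold between 0.769 and 1.12 at 95% confidence. Without vitamin C replicate 3 the log2 fold change was -0.07. In total, 5 of the 9 genes tested had groups that did not overlap, all 5 higher with vitamin C, against 30.6% of all genes without overlap, 15.6% higher and 14.9% lower.

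To compare levels between genes, CPM was divided by the length of all exons in GENCODE 29 in kilobases. IL6ST led in control wells with 52.8 ± 0.673 CPM per kb (SD, n = 3 wells), followed by JAK1 (16.6 ± 0.170), STAT3 (15.2 ± 0.475) and OSMR (12.6 ± 0.984). SOCS3 came next with 2.64 ± 0.0154 CPM per kb, then IL6R (2.38 ± 0.193), SOCS2 (2.25 ± 0.0598), PIM1 (1.86 ± 0.123), CISH (0.130 ± 0.0403) and SOCS1 (0.0590 ± 0.0231). IL6R and SOCS2 overlapped in this order, while each other pair of neighbours lay apart. The order depends on the annotated exon lengths, such as 2734 bases for SOCS3 and 6776 for SOCS2. Before division by length, SOCS2 averaged 15.3 CPM and SOCS3 7.21 CPM in control wells. With vitamin C, SOCS3 kept its place at 5.59 ± 1.21 CPM per kb, and SOCS2 (2.84 ± 0.191) and IL6R (2.68 ± 0.196) changed places, still overlapping. IL6ST, JAK1, STAT3 and OSMR thus lay above all 4 feedback inhibitors on this scale, before and after treatment.

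**Figure D2:**
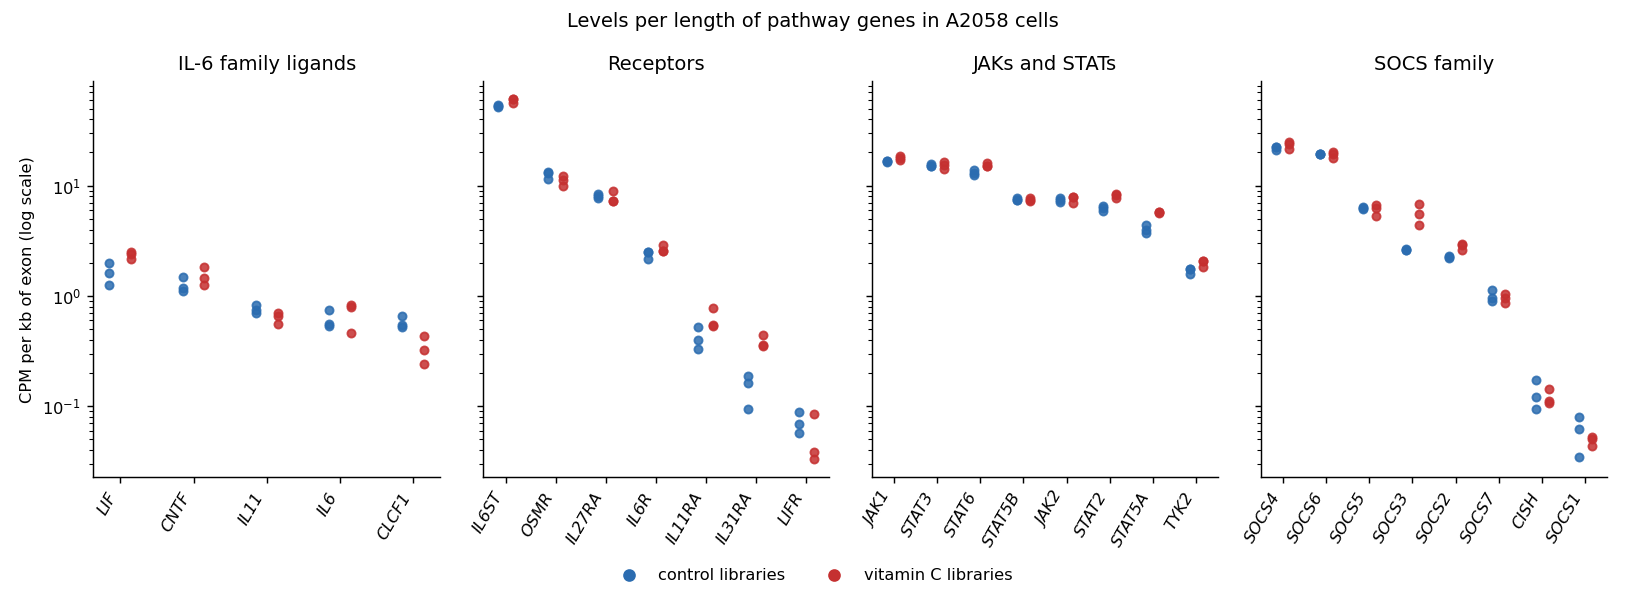
Level per exon length (y axis, CPM per kb, log scale) of ligands, receptors, JAKs and STATs, and the SOCS family, with blue points for the 3 control and red points for the 3 vitamin C libraries. IL6ST lies at 52.0 to 53.3 CPM per kb in control wells, while CISH and SOCS1 lie lowest of the SOCS family, and SOCS3 moves from 2.63 to 2.66 up to between 4.44 and 6.84.

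Around these 10 genes, 97 others of the pathway were listed by role, and 74 of them had enough counts to test. Of the 74, 13 rose and 4 fell under vitamin C (23.0%, against 11.2% of all genes, 6.09% higher and 5.09% lower), and the median log2 fold change was 0.02. Of the 11 ligands of the interleukin-6 family, 5 could be tested and 1 was called, against the same 11.2% of all genes. LIF, leukemia inhibitory factor, was the one that rose, from 7.88, 6.37 and 4.95 CPM in control to 8.53, 9.57 and 9.83 CPM in vitamin C replicates 1 to 3. Its log2 fold change was 0.50 with a standard error of 0.140 (edgeR, adjusted p = 0.0374). LIF was not called when control replicate 2, control replicate 3 or vitamin C replicate 2 was left out, where the adjusted p was 0.119, 0.114 and 0.113. CLCF1, cardiotrophin-like cytokine, had 0.477 to 0.861 CPM with vitamin C against 1.03 to 1.30 CPM in control, a log2 fold change of -0.74 that did not pass the test (edgeR adjusted p = 0.129). For IL6 itself the log2 fold change was 0.17, from 18 to 64 counts per library (edgeR adjusted p = 0.751), and for CNTF and IL11 it was 0.27 and -0.23 (edgeR adjusted p = 0.426 and 0.53).

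Of 4 further receptors of the family that could be tested, 1 was called, against 11.2% of all genes called in either direction. This was IL31RA, the interleukin-31 receptor chain that pairs with OSMR. It went from 0.744, 0.856 and 0.433 CPM in control to 1.60, 1.64 and 2.00 CPM in vitamin C replicates 1 to 3, a log2 fold change of 1.29 with a standard error of 0.273 (edgeR, adjusted p = 0.0082). This rests on 61 counts over the control libraries. IL11RA, LIFR and IL27RA had log2 fold changes of 0.49, -0.53 and -0.05 and were not called (edgeR adjusted p = 0.189, 0.409 and 0.792). Reads of IL11RA can also come from genes that share 17.4% of its exon bases on the same strand.

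Receptors of other cytokines that use JAKs moved in both directions, with 2 of 13 higher and 2 lower (30.8%, against 11.2% of all genes). GHR, the growth hormone receptor whose signaling SOCS2 restrains, fell from 65.9, 66.9 and 66.5 CPM in control to 46.1, 44.4 and 40.9 CPM in vitamin C replicates 1 to 3. Its log2 fold change was -0.60 with a standard error of 0.0583 (edgeR, adjusted p = 2.32e-05). IL7R, the interleukin-7 receptor chain, fell from 12.0, 9.23 and 11.8 CPM to 4.74, 5.56 and 4.68 CPM, a log2 fold change of -1.13 (edgeR adjusted p = 8.85e-05). The leptin receptor LEPR and the interleukin-13 receptor IL13RA2 rose, with log2 fold changes of 0.36 and 0.71 (edgeR adjusted p = 0.0204 and 0.0342). LEPR lost its call without the same 3 libraries as LIF (edgeR adjusted p up to 0.0971), and IL13RA2 lost it whichever library was left out (edgeR adjusted p = 0.0516 to 0.132). IL13RA1 and IL15RA had log2 fold changes of 0.12 and -0.82 and did not pass (edgeR adjusted p = 0.0959 and 0.151). In these 4 called genes and in LIF and IL31RA, the values of the 3 wells did not overlap between groups, against 30.6% of all genes without overlap. These genes were called on the same values, so this adds no independent evidence.

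Among 7 other JAKs and STATs tested, 3 were higher and none lower by edgeR (42.9%, against 11.2% of all genes). DESeq2, the exact test and limma-voom called the same 3. None of the 7 was lower at an unadjusted p under 0.05. STAT5A, which acts beside STAT5B in growth hormone and prolactin signaling, rose from 25.04, 21.6 and 22.8 CPM in control to 33.3, 33.4 and 32.7 CPM in vitamin C replicates 1 to 3. Its log2 fold change was 0.51 with a standard error of 0.0705 (edgeR, adjusted p = 4.05e-04). STAT5B, named after its values were seen, averaged 48.5 CPM in control and 48.1 CPM in vitamin C wells. It was not called (log2 fold change -0.01, edgeR adjusted p = 0.913). STAT2, which acts downstream of type I interferons, rose with 0.37 (edgeR adjusted p = 0.00175), and STAT6, the STAT of interleukin-4, with 0.23 (edgeR adjusted p = 0.0127). STAT6 was not called without control replicate 1 or 2 (edgeR adjusted p = 0.0735 and 0.0648). TYK2 had a log2 fold change of 0.22 and groups without overlap but did not pass (edgeR adjusted p = 0.14). JAK2 had 0.03 (edgeR adjusted p = 0.826). STAT3 was thus among the STATs without a call, beside 3 that rose. Whether it differed from them was not tested.

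No gene of the other inhibitory parts of the pathway was called in either direction by edgeR, against 11.2% of all genes. DESeq2, edgeR's exact test and limma-voom called none of them either. This holds for the 8 genes of the other SOCS proteins and of the ubiquitin ligase that the SOCS box recruits, and for 10 phosphatases, PIAS proteins and adaptors, in which no gene had an unadjusted p under 0.05. Whether these short lists differ from the share of all genes was not tested. SOCS4, CUL5 and RNF7 had the largest positive log2 fold changes of the first group, 0.10, 0.09 and 0.11. SOCS4 was called when vitamin C replicate 3 was left out, at 0.16 (edgeR adjusted p = 0.0255). SOCS5, SOCS7 and ELOB had -0.05, -0.04 and -0.05. In the second group PTPN11, the phosphatase SHP2 and the most abundant of them, was at 439 and 440 CPM on average in control and vitamin C wells (log2 fold change 0.00). PIAS1, PTPN2 and SH2B3 had log2 fold changes of -0.14, -0.12 and -0.04 and PIAS3 of 0.06, while PTPN6 (0.53) and PTPRC (-0.53) rested on 3 to 32 counts per library.

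Of 35 genes listed as STAT3 targets in general, 27 could be tested. Of these, 6 were higher and 2 lower with vitamin C (29.6%, against 11.2% of all genes), with a median log2 fold change of 0.09. The other 19 were not called, with log2 fold changes from -0.08 (BCL6) to 0.64 (SERPINA3), both named after their values were seen. NNMT, nicotinamide N-methyltransferase, rose from 18.2, 15.4 and 15.5 CPM in control to 28.0, 26.7 and 27.0 CPM in vitamin C replicates 1 to 3, a log2 fold change of 0.72 with a standard error of 0.0792 (edgeR, adjusted p = 6.82e-05). The acute phase protein SAA1 also rose with 0.72 (edgeR adjusted p = 0.0184), though its reads can be shared with the near-identical SAA2, which had 1 to 14 counts per library. The mesenchymal factor TWIST1 rose with 0.46, the cell cycle driver CCND1 (cyclin D1) with 0.34 and the hypoxia factor HIF1A with 0.20 (edgeR adjusted p = 0.0026, 2.37e-04 and 0.00812). MYC, the growth regulator, fell, with 34.4 ± 0.413 CPM in control and 27.8 ± 2.295 CPM in vitamin C wells (SD, n = 3) and a log2 fold change of -0.30 (edgeR adjusted p = 0.0135). The calls were lost for MYC without control replicate 2 or 3 (edgeR adjusted p = 0.0502 and 0.0594) and for SAA1 without control replicate 1 or 2 (edgeR adjusted p = 0.0761 and 0.0853). The remaining called genes, named after their values were seen, were the metalloproteinases MMP2 with 0.24 and MMP9 with -0.62 (edgeR adjusted p = 0.0194 and 0.0376). With 1 library left out in turn, MMP2 stayed called in 3 of 6 fits and MMP9 in 1 of 6. These genes answer to many factors besides STAT3, and TWIST1 and CCND1 overlap genes on the other strand in 6.9% and 10.3% of their exon bases.

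**Figure D3:**
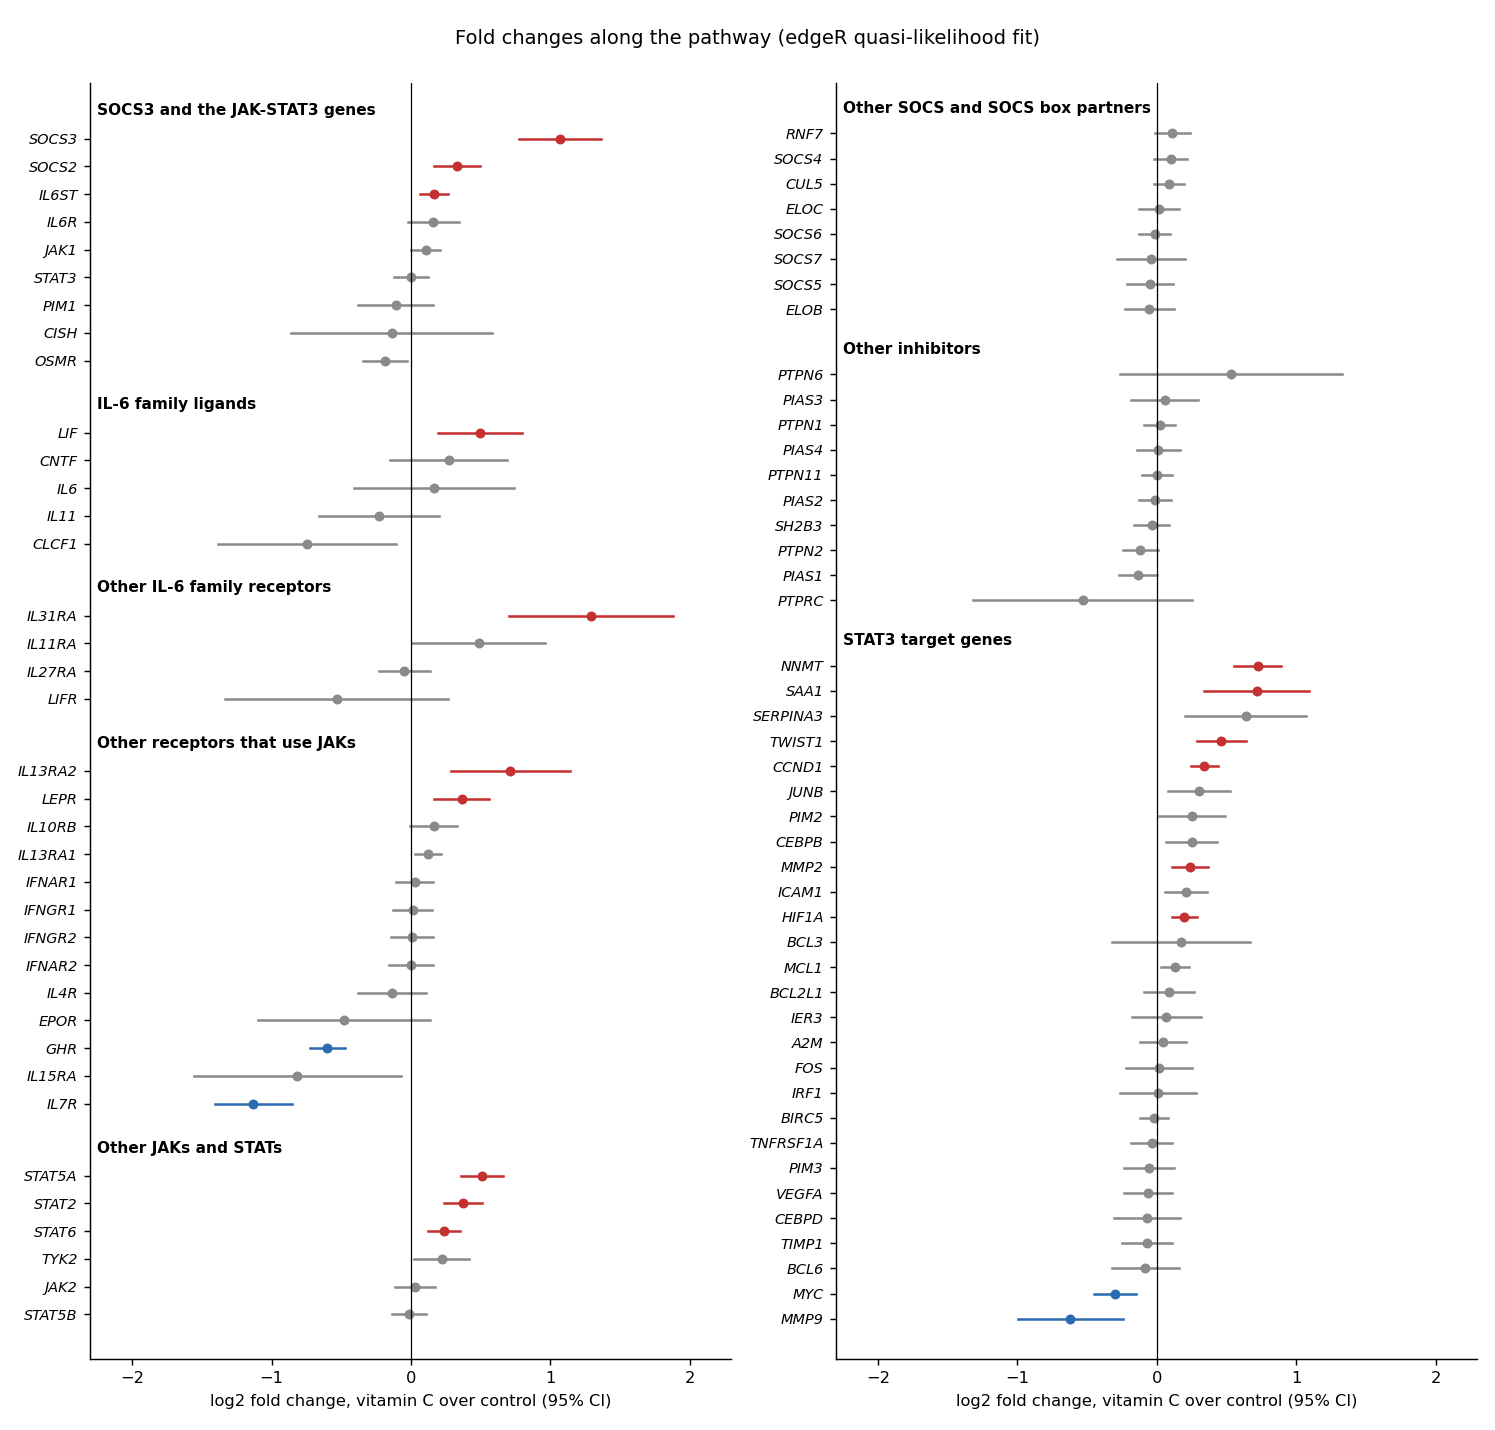
Vitamin C over control on the log2 scale (x axis) with 95% confidence intervals for the 9 genes tested of the JAK-STAT3 core and the 74 tested genes listed around it, 1 of which is not drawn, grouped by role. Red genes are higher and blue genes lower at an adjusted p under 0.05, and gray genes were not called. SOCS3 lies at 1.07, IL31RA at 1.29 and IL7R at -1.13. The SOCS partners and other inhibitors hold no called gene, against 11.2% of all genes called by edgeR.

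The genes whose level followed that of SOCS3 most closely over the 6 libraries were sought among 10584 others with a mean of at least 5 CPM, by Pearson's r of log2 CPM. These were HLCS (r = 0.9961), PNPLA8 (0.9960), OSGIN2 (0.9946), ANGPT1 (0.9946) and PARPBP (0.9934). Each had its highest level in vitamin C replicate 3 and its lowest treated level in replicate 2, as SOCS3 had, an order that the choice by correlation favors. ANGPT1, the vessel ligand angiopoietin-1, went from 134 to 136 CPM in control wells to 165 to 184 CPM with vitamin C. Their log2 fold changes, 0.13 to 0.36, were far smaller than that of SOCS3. In all, 676 genes reached an r of 0.9 over these 6 libraries. The split into control and vitamin C wells is common to all genes, so the list is a description.

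**Figure D4:**
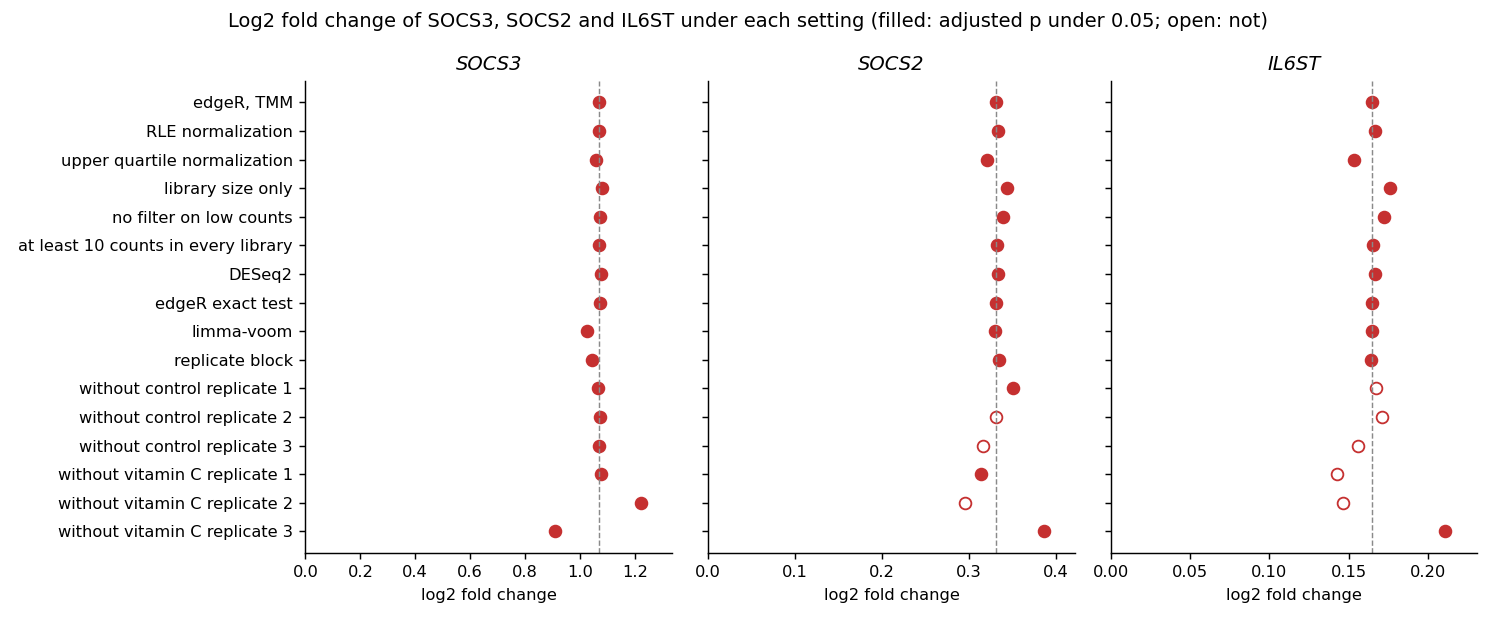
Log2 fold change of SOCS3, SOCS2 and IL6ST (x axes, from 0, each on its own scale) in the edgeR fit with TMM scaling and in 15 alternatives (rows), filled where the adjusted p is under 0.05 and open where it is not, with a dashed line at the value of the first row. SOCS3 stays filled in every row at 0.91 to 1.22, while SOCS2 loses its call in 3 rows and IL6ST in 5, all of them with 1 library left out.

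Markers of other cell types moved with the treatment in part. The summed level of 8 blood cell markers was 4.97 to 6.43 CPM in control and 9.16 to 10.5 CPM in vitamin C wells, most of it LAPTM5 (4.33 and 8.40 CPM on average), while CD53, CD52, TYROBP, HBB and HBA1 had at most 1 count in any library. The sum of 7 fibroblast markers was 57.2 to 65.4 and 95.3 to 111 CPM, most of it LUM. Of 5 fibroblast markers tested, LUM and PDGFRB were called, with log2 fold changes of 0.83 and 1.60 (edgeR adjusted p = 6.2e-06 and 6.95e-04), while DCN, COL1A1 and PDGFRA had 0.63, -0.11 and -0.14 and were not called. COL1A2 and THY1 had too few counts to test. The sum of 6 epithelial markers was 63.0 to 67.4 and 56.0 to 58.6 CPM, most of it KRT18, which was called with a log2 fold change of -0.21 (edgeR adjusted p = 0.0258). KRT8 and KRT14 had -0.29 and 0.39 and were not called (edgeR adjusted p = 0.202 and 0.307). EPCAM, KRT5 and CDH1 had too few counts to test, with CDH1 at 6 counts over control and 30 over vitamin C libraries. LAPTM5 was called as well, with 0.98 (edgeR adjusted p = 2.17e-04). The other blood cell markers tested, PTPRC and CORO1A, had -0.53 and -0.0052 and were not called (edgeR adjusted p = 0.398 and 0.997). Of the tested blood cell, fibroblast and epithelial markers, 33.3%, 40.0% and 33.3% were called, against 11.2% of all genes. The part of all these markers in the values above was not tested.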

How the data were processed

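RNA was taken from 3 control and 3 vitamin C wells of A2058 cells, and ribosomal RNA was depleted. The authors deposited raw read counts for each gene, made by aligning paired-end reads with STAR and counting with HTSeq. The paper names GENCODE v19, while the submitters' processing notes name hg38, CASAVA 1.4 and Trim Galore. Groups came from the sample titles. The table of the series and the 6 single-sample tables held the same counts. GENCODE 29 gave symbols for 57055 of 60675 identifiers, exon lengths and coordinates (GRCh38). The analysis used edgeR 4.0.16 in R 4.3.3, with TMM scaling, the quasi-likelihood test and no covariate, and calls were made at 0.05 after Benjamini-Hochberg adjustment. Confidence intervals use the standard error and total degrees of freedom of that fit, the residual ones plus prior ones shared across genes. Confidence intervals from counts cover counting error only. DESeq2 1.42.0, edgeR's exact test and limma-voom (limma 3.58.1), other scalings and filters, the replicate number as a block and each library left out in turn were alternatives. The edgeR, DESeq2 and limma-voom tests were run on simulated data first. The 10 genes, the lists around them and the rule for naming genes (all 10, up to 6 of each list with the smallest p and its most abundant gene, and the 5 most like SOCS3) were chosen with earlier results of these data known. One listed gene is counted in its list but not reported here. The labels name no sequencing lane, and no batch was tested.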

Additional observations from a re-analysis of the deposited data

How the results depend on the processing

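SOCS3 was higher at an adjusted p under 0.05 in all 15 alternatives, at log2 fold changes of 0.91 to 1.22. With 1 library left out in turn, SOCS2 ranged from 0.30 to 0.39, IL6ST from 0.14 to 0.21, CISH from -0.33 to 0.21 and STAT3 from -0.0483 to 0.0572, and 1 to 3 of the 9 genes were called. STAT3 was 0.0012 with RLE scaling, 0.0108 with library size alone, 0.0073 without the filter and 0.0012 with DESeq2, so its sign was not settled. Over all genes, 1829 were called (996 higher, 833 lower), and 964 to 2095 with 1 library left out (549 to 1184 higher, 411 to 911 lower). In the pathway lists 17 were called, and 9 to 20 with 1 left out (7 to 16 higher, 2 to 4 lower). Over all genes the calls were 1092, 977 and 964 without control replicate 1, 2 or 3 and 1136 without vitamin C replicate 2, and in the pathway lists 9 and 11 without control replicate 2 or 3. These fits have fewer wells, and no other cause was tested.

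The sample titles give a replicate number and do not say whether it pairs the wells. Same-numbered wells had correlations of 0.123, -0.024 and 0.091, and differently numbered wells of -0.179 to 0.108. These values show no clear pairing and cannot exclude it. With the replicate number as a block, OSMR passed at -0.19 (edgeR adjusted p = 0.0331), 1913 genes were called over the whole table, and no other of the 9 genes changed its call. SOCS1 and CISH were limited by depth.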
